A study of Danaus plexippus with 36 samples.

Results

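In the monarch butterfly Danaus plexippus, 43 of 15130 gene models took a share of the reads at least 4 times larger in legs than in both antennae and proboscis, in each of 2 batches of animals. The members were chosen by their measured levels. Levels were counts per 1000000 counts of the library (CPM), and 0.1 was added to each mean. A gene was selected when its leg mean was at least 5 CPM and at least 4 times both the antennal and the proboscis mean, in batch 1 and again in batch 2. Every leg excess described here was therefore set by the selection and carries no test. The selection did not order antennae against proboscis, the sexes or the batches. It averaged the sexes, so a gene high in the legs of a single sex could pass through that sex. It also barred genes whose leg level or leg excess was lost in either batch.

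Legs, antennae and proboscis are sensory appendages. A butterfly smells mainly with its antennae and tastes with hair-like sensilla on the legs and the proboscis, and females of many species, monarchs among them, drum a leaf with their legs before laying an egg. Legs differ from the other appendages in more than taste, since they also carry the muscles, joints and cuticle used for walking and clinging.

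The animals were field-caught adults, 6 gravid females and 6 males, and each batch held 3 of each sex. Antennae, legs and proboscis of each animal were sequenced separately, and the labels do not say which legs were pooled. The antennae of male 2 were not analysed here, so 35 of the 36 libraries entered: 11 of antennae, 12 of legs and 12 of proboscis. Each animal is named below by its sex and its number. The identifiers, which begin with DPOGS, are not paired with gene names in the files and matched 0 entries of the RefSeq gene table of the MEX_DaPlex assembly. No function or position could be attached to a member, and the tissue labels could not be checked against marker genes.

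Libraries held 0.622 to 24.7 M counts (M, units of 1000000) in antennae, 11.7 to 117 M in legs and 1.92 to 53.7 M in proboscis. A single count was worth 1.61 CPM in the shallowest antennal library, that of female 11, and 0.00858 CPM in the deepest leg library, that of male 12. All leg libraries of batch 2 (35.6 M counts or more) were deeper than those of batch 1 (15.2 M or fewer). Batch and depth therefore cannot be told apart in legs as sequenced, and calls after thinning to equal totals are given below.

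The members together were a small part of each transcriptome. They held 0.258 to 1.01% of the counts of a leg library (median 0.384%, n = 12). In proboscis the share was 0.0164 to 0.114% (median 0.0463%, n = 12), and in antennae it was 0.00307 to 0.0116% (median 0.00649%, n = 11). The 3 ranges did not overlap. In these bulk samples, fewer cells of a type and less RNA per cell cannot be told apart. All 43 members had a count in every leg library. In an antennal library 7 to 35 of them (median 19) had one, and in a proboscis library 20 to 42 (median 38.5). Depth also bears on detection and was not made equal here. The 35 were in the deepest antennal library, that of female 1, with 24.7 M counts.

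Mean leg levels ran from 6.49 to 860 CPM with a median of 38.9 CPM over the members. Of the 43, 4 lay below 10 CPM, 22 between 10 and 50, 6 between 50 and 100, and 11 at 100 CPM or more. Their antennal means lay between 0 and 6.65 CPM (median 0.797), and 22 were under 1 CPM. Their proboscis means lay between 0.0248 and 126 CPM (median 2.10), and 14 were under 1 CPM. CPM is not divided by gene length, so these levels rank shares of reads and not amounts of transcript.

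**Figure D1:**
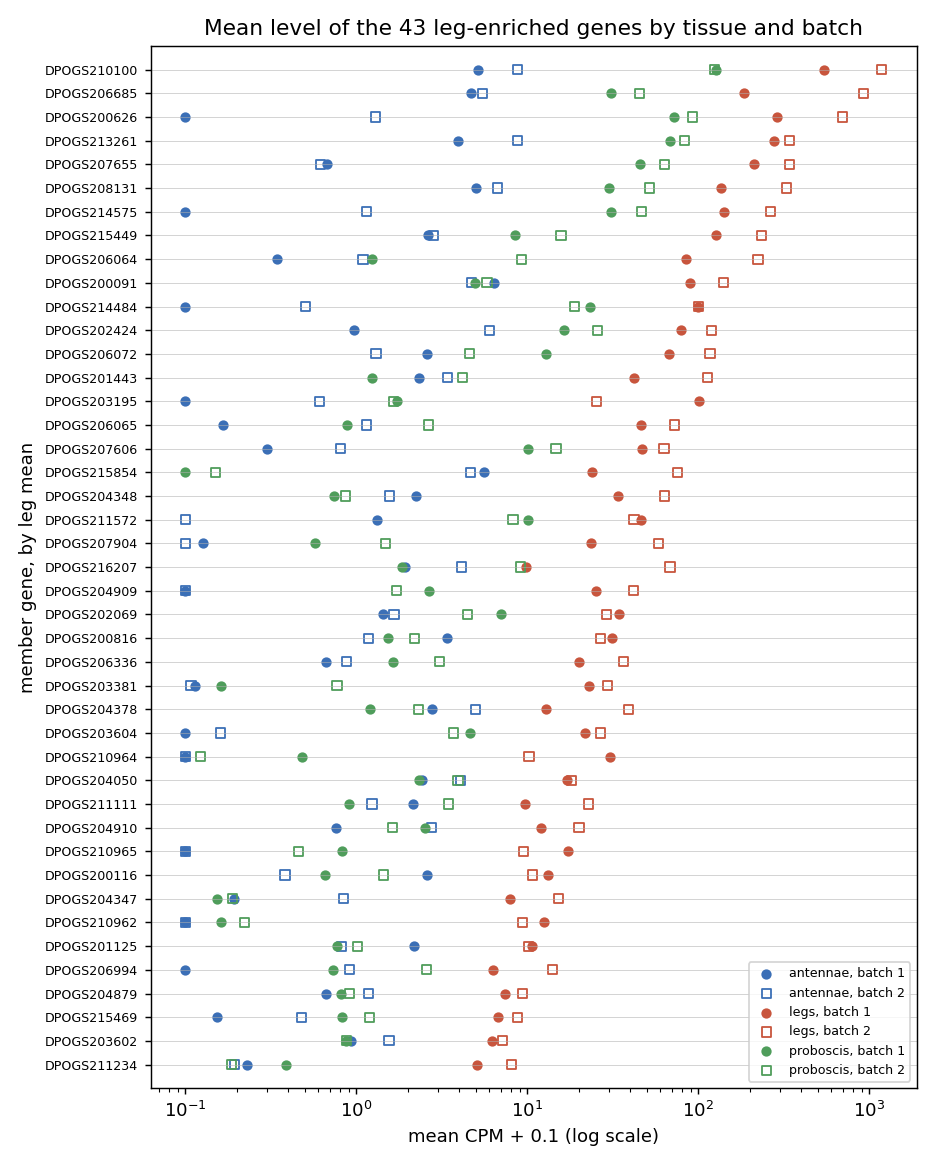
Mean level of each of the 43 members (rows, ordered by leg mean) on a log axis of CPM + 0.1, by tissue (colour) and batch (filled circles batch 1, open squares batch 2). Leg means lie to the right of both other tissues in every row, by the selection. The batch means reach 127 CPM in proboscis and stop at 8.65 CPM in antennae.

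DPOGS210100 had the highest mean leg level. Its leg libraries held 434 to 1739 CPM (median 797), its proboscis libraries 22.6 to 343 CPM and its antennal libraries 0 to 16.5 CPM. The 3 tissues did not overlap in any library. It was also the steadiest member in legs, with a coefficient of variation within batches (SD over mean) of 20.4%. Its leg mean in batch 1 was 4.25 times the proboscis mean, close to the limit of 4. It left the list when either of 2 animals was left out.

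DPOGS206685 ranked second by mean leg level, at 553 ± 892 CPM (SD, n = 12), but 1 library set that mean. The legs of male 2 held 3329 CPM and the other 11 leg libraries 54.1 to 645 CPM, with a mean of 300.5 CPM without male 2. Its proboscis libraries held 5.72 to 91.2 CPM and its antennal libraries 0 to 15.1 CPM. Legs were above the animal's own antennae and proboscis in every animal, although the lowest leg library lay below the highest proboscis library.

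DPOGS210964 and DPOGS210962 had the largest leg excess, judged by the lower of a gene's 2 batch ratios of the leg mean to the higher of the other tissue means. That ratio was 62.5 for DPOGS210964 and 42.5 for DPOGS210962. Leg libraries of DPOGS210964 held 4.77 to 39.8 CPM, proboscis libraries 0 to 1.33 CPM, and antennal libraries no count. Leg libraries of DPOGS210962 held 4.77 to 15.9 CPM, proboscis libraries at most 0.729 CPM, and antennal libraries again no count. For both genes all leg libraries lay above all libraries of the other tissues.

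At the other end, DPOGS200626 (ratio 4.01) and DPOGS213261 (ratio 4.05) were just inside the rule. DPOGS205056 (3.91) and DPOGS209712 (3.86) were just outside it. DPOGS205056 had a leg mean of 33.5 CPM and a proboscis mean of 7.91 CPM, and DPOGS209712 had 22.3 CPM and 4.92 CPM. Over all members the smaller ratio had a median of 5.28. It lay between 4 and 5 for 19 members, between 5 and 10 for 9, between 10 and 20 for 8, and at 20 or above for 7. The rule as applied to a single batch kept 62 genes in batch 1 and 108 in batch 2.

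Within animals the order of the tissues was steady for most members. Legs had the highest level in every animal for 35 of 43 members, where 1.54% of the 11804 genes tested did so. Legs exceeded antennae in all 11 animals with both tissues for 38 members, and exceeded proboscis in all 12 for 37. Neither of these counts was made over all genes tested. Without pairing by animal, every leg library lay above every antennal library for 27 members (3.08% of genes tested). Every leg library lay above every proboscis library for 13 (0.347%), and above both tissues for 11 (0.229%). These shares are set by the selection on the same levels and are given as a description.

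The leg excess took 4 forms, by the fold of the leg mean over each other tissue with 0.1 CPM added. In 19 members it was at least 10-fold over both tissues. In 15 it was at least 10-fold over antennae but not over proboscis, and in 4 over proboscis but not over antennae. In the other 5 it was under 10-fold over both. The median fold was 40.1 over antennae (range 5.53 to 769) and 11.5 over proboscis (range 4.10 to 400).

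The comparison of antennae with proboscis asks where a member stood in the tissues that the selection did not favour. The selection set a ceiling on both tissues and left the difference between them free. The members were mostly lower in antennae. With edgeR's quasi-likelihood test over the 35 libraries and an adjusted p below 0.05, 25 of 43 (58.1%) were lower in antennae than in proboscis, where 14.7% of all genes tested were. Only 1 (2.33%) was higher in antennae, where 11.4% of all genes tested were. The other 17 did not pass the test. The median fitted log2 change, antennae minus proboscis, was -3.23 over the members, or -2.87 with the members without an antennal count set at their bound, and -0.02 over all genes tested.

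The 25 members lower in antennae were 13 of the 15 with a 10-fold leg excess over antennae alone and 12 of the 19 with a 10-fold excess over both tissues. These forms use the same antennal and proboscis means that the test compares. A 10-fold excess over antennae alone already means a lower antennal than proboscis mean, so this split is a description only. Of the 25 members lower in antennae, 19 had more than 3 antennal counts in all, and their fitted changes ran from -2.77 to -8.88. A further 3 had 1 to 3 antennal counts, and 3 had none. Proboscis was above antennae in 11 of 11 animals for 9 of the 25, and the fewest was 5 of 11. Every proboscis library lay above every antennal library for 5 members. These counts by animal and by library were not made over all genes tested, so they only describe the members.

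DPOGS200626 had the largest fitted fall among members with more than 3 antennal counts. Its proboscis libraries held 23.5 to 213 CPM (median 55.0). Its antennal libraries held 0 to 3.22 CPM, and 7 of 11 had no count. The tissues did not overlap, and proboscis was higher in 11 of 11 animals. The fitted log2 change was -8.88 ± 0.65 (SE), with a Benjamini-Hochberg adjusted p of 1.31e-12 from edgeR. Its size moved with the libraries used, to -10.75 without male 12, -12.57 in batch 1 alone and -7.32 in batch 2 alone. In batch 1 no antennal library had a count, so that fitted value is no bound. In legs the same gene held 213 to 1077 CPM.

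DPOGS204909 was also lower in antennae, where no library had a count. It was named for its fitted change, which is no bound against 0 counts, so it has no rank among the members by size. Its proboscis libraries held 0 to 12.6 CPM (median 0.289), and 3 of 12 were at 0. Proboscis held 477 counts in all. Against a floor of 3 counts over the antennal libraries, the pooled proboscis level was at least 53.1-fold higher. That bound covers counting error only and not the spread between animals. The test of edgeR, which is on its fitted change and not on this bound, gave an adjusted p of 0.000456. The libraries overlapped at 0, and proboscis was higher in 8 of 11 animals. In batch 1 alone the adjusted p was 0.0849 with edgeR. Over both batches limma voom gave a smaller log2 change of -2.62, with an adjusted p of 0.0261.

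DPOGS215854 was the member higher in antennae. Its antennal libraries held 0 to 19.2 CPM (median 3.33), and its proboscis libraries 0 to 0.162 CPM, with a count in 3 of 12. Antennae were higher in 10 of 11 animals. The fitted log2 change was 7.10 ± 0.87 (SE), adjusted p 9.23e-08 with edgeR. The change was 6.04 without male 15, 8.16 in batch 1 alone, 4.66 in batch 2 alone, 6.45 with the animal as a block and 4.57 with limma voom. Its leg libraries held 9.09 to 189 CPM, so that this gene was read in legs, less in antennae, and barely in proboscis.

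**Figure D2:**
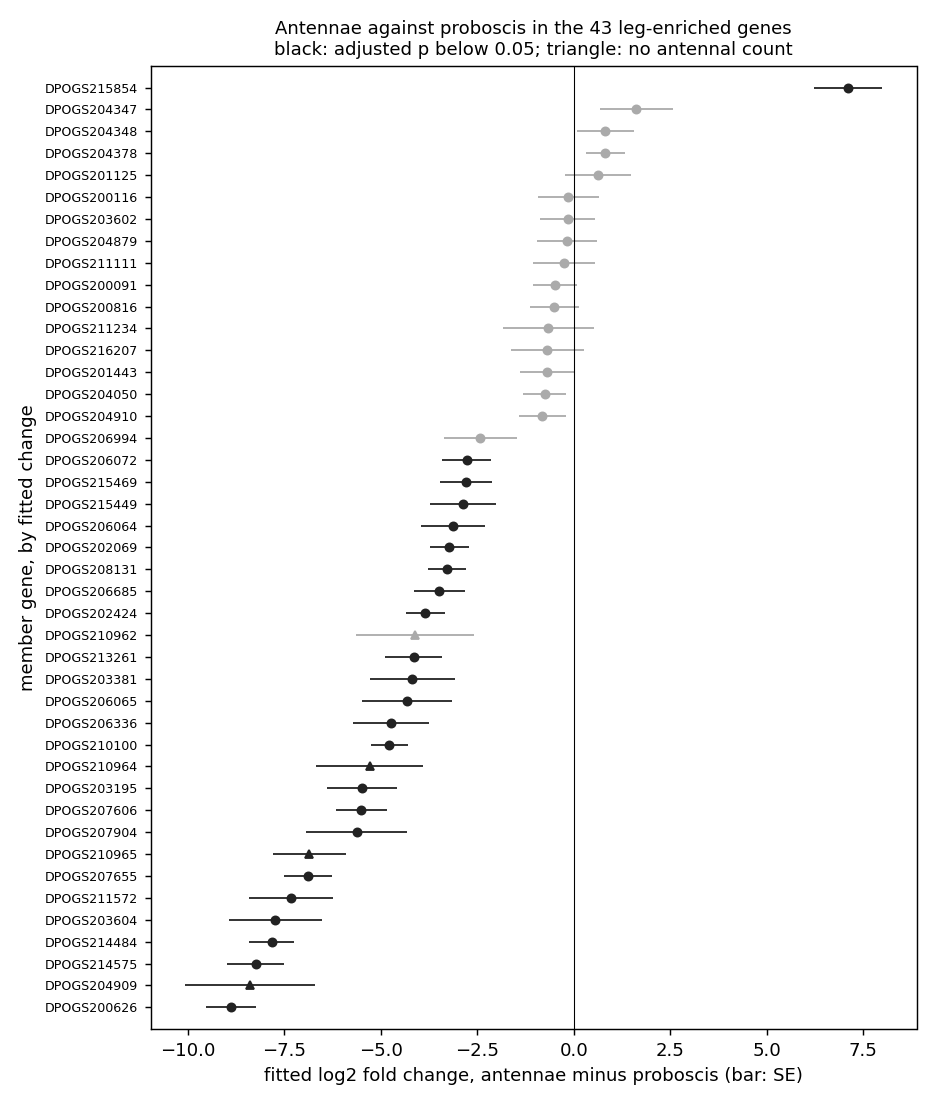
Fitted log2 fold change of each of the 43 members between antennae and proboscis (horizontal axis, negative where antennae are lower), with its SE as a bar. Black points passed an adjusted p of 0.05, grey points did not, and triangles had no antennal count, so that their fitted value is no bound. Most black points lie left of 0, from -2.77 to -8.88, and 1 lies right of it at 7.10.

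The scale mattered for the order of the antennal and proboscis levels, though not for most calls. By mean CPM from library totals, 12 members were higher in antennae than in proboscis, whereas 5 had a positive fitted change. By the means of each batch, proboscis was above antennae in both batches for 27 members, antennae above proboscis in both for 6, and the order differed for 10. The fit scaled libraries with the TMM factors of edgeR (trimmed mean of M values), which had medians of 1.39 in antennae, 0.818 in legs and 0.932 in proboscis. With TMM 26 members and 3084 of the 11804 genes tested passed the test. Without TMM the median change of all genes moved from -0.02 to 0.47. Then 27 members, 2 of them higher in antennae, and 4144 of all genes passed. The shallowest libraries, of antennae and proboscis of female 11, held 0.622 and 1.92 M counts. Without them 28 members and 3266 of all genes passed. Batch 1 alone gave 23 members and 2268 of all genes, and batch 2 alone 21 members and 1815 of all genes. Over both batches limma voom gave 20 members, 19 of them lower in antennae, and 2855 of all genes.

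Levels in legs varied widely between animals. The coefficient of variation within batches had a median of 63.0% over the members, and 36.9% over the genes that reached the leg level of the rule in both batches. The difference between these medians was not tested, and the selection read the same leg libraries. The highest leg library of a member lay a median of 11.3-fold above its lowest. DPOGS207655, with a coefficient of variation of 23.4%, came next after DPOGS210100 among the steady members. Its leg libraries held 122 to 440 CPM (median 287), its proboscis libraries 7.53 to 123 CPM and its antennal libraries at most 2.64 CPM.

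The most variable member was DPOGS216207, at 167%. The legs of female 1 held 358 CPM, and the other 11 leg libraries 0.314 to 32.9 CPM. Its leg mean was 38.9 CPM with that library and 9.89 CPM without it. Its proboscis libraries held 0.415 to 30.8 CPM and its antennal libraries 0 to 10.9 CPM. The tissues overlapped, and legs were above proboscis in 9 of 12 animals.

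DPOGS215449 followed at 152%. The legs of male 2 held 874 CPM and those of female 27 held 537 CPM, while 4 leg libraries held 10.1 CPM or less. Its leg mean was 180 ± 266 CPM (SD, n = 12), and 117 CPM without male 2. Its proboscis libraries held 2.30 to 41.5 CPM, and its antennal libraries at most 10.6 CPM. Legs were above proboscis in 11 of 12 animals.

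**Figure D3:**
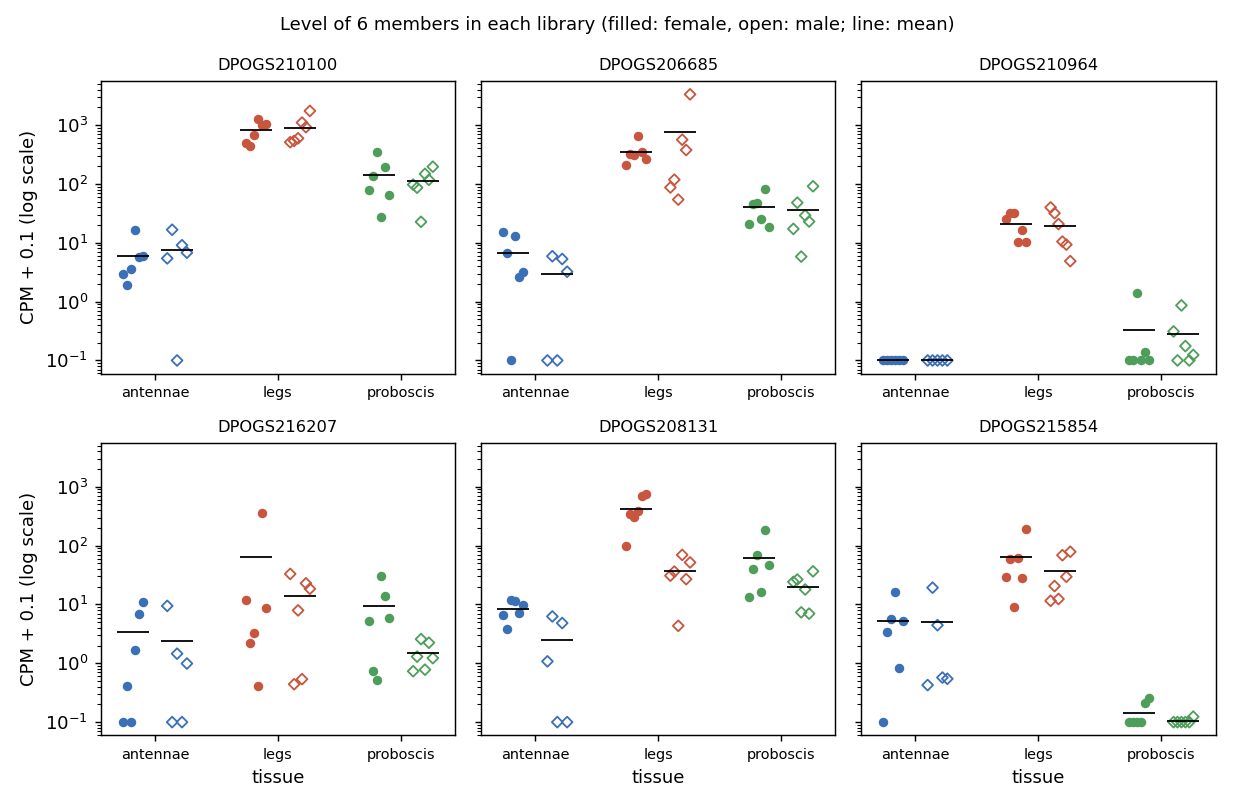
Level of 6 members in each library on a log axis of CPM + 0.1, by tissue (horizontal axis), with females as filled circles, males as open diamonds and a line at each mean; points at the bottom have no count. DPOGS210100 separates all tissues, and DPOGS210964 separates legs from the others, while its antennae and proboscis overlap at no count. In DPOGS216207, 1 female leg library lies at 358 CPM far above the rest. DPOGS208131 separates the sexes in legs, and DPOGS215854 is nearly without counts in proboscis.

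The study also compared the sexes, here in legs. Each female sampled was carrying eggs, and no female without them was available for comparison. Whether a difference between females and males below goes with sex itself or with egg carrying was therefore not tested. DPOGS208131 was higher in female legs. The 6 female leg libraries held 98.5, 305, 340, 380, 686 and 746 CPM. The 6 male leg libraries held 4.24, 26.8, 30.8, 36.1, 51.7 and 69.4 CPM. Every female lay above every male, and the means were 426 ± 246 CPM (SD, n = 6) and 36.5 ± 22.3 CPM (SD, n = 6). The selection averaged the sexes, so the high female leg levels helped this gene to pass. In males alone the leg mean was less than 4 times the proboscis mean of 19.8 CPM. The fitted log2 difference, female minus male, was 3.27 ± 0.45 (SE), with a Benjamini-Hochberg adjusted p of 0.0225 from edgeR.

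No other member passed that test. The 1 member called is 2.33% of the 43, where 0.0254% of all genes tested were called higher in female legs and 0.00847% lower. Over the members 20 fitted differences were positive and 23 negative, with a median of -0.03. Of the members, 9 (20.9%) had an unadjusted p below 0.05, where 733 of all genes tested (6.21%) did. These shares were not tested against each other, and members could enter through the sex with the higher leg level. DPOGS203602 had leg means of 11.5 CPM in females and 1.73 CPM in males, the latter under the 5 CPM of the rule. The call on DPOGS208131 was lost when single animals were left out. Its adjusted p lay between 0.0551 and 0.0681 when male 2, male 12, male 15, male 16, female 25 or female 27 was left out, while its log2 difference stayed between 3.15 and 3.48. Within the batches the log2 difference was 3.01 in batch 1 (adjusted p 0.341) and 3.54 in batch 2 (adjusted p 0.188), with 3 animals of each sex and edgeR's test. In batch 1 alone the member called was DPOGS203381, named after its values were seen. It was lower in females, at a log2 difference of -4.24 and an adjusted p of 0.0130 with edgeR. Its female leg libraries of batch 1 held 2.11 to 3.95 CPM, so it passed the selection in that batch through males.

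In proboscis DPOGS208131 held 13.0 to 185 CPM in females and 6.88 to 36.5 CPM in males, and the sexes overlapped. The sex difference in legs exceeded that in proboscis by 1.80 ± 0.84 (SE) on the log2 scale, with an adjusted p of 1 from edgeR. No member passed the test of a sex difference that differs between legs and proboscis. It called 0% of all genes higher and 0% lower, 3 members and 145 of all genes had an unadjusted p below 0.05, and DESeq2 also called no member. The test of the difference therefore does not show that the sex difference of DPOGS208131 is particular to legs.

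The selection required a leg excess and a leg mean of at least 5 CPM in each batch. It did not order the batches, but it barred genes lost in either of them. In legs 7 of 43 members differed between batches, 4 higher in batch 2 (9.30%) and 3 lower (6.98%), with edgeR. Of all genes tested, 20.4% were higher in batch 2 and 20.9% were lower. The shares of members and of all genes were not tested against each other, and the bar on genes lost in a batch limits their comparison. With column totals in place of TMM the split was 7 higher and 2 lower, and the median change of all genes moved from 0.14 to 0.40. Of all genes, 5197 were then called, against 4873 with TMM. The median over the members was 0.40 with TMM.

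DPOGS203195 fell furthest from batch 1 to batch 2. The 6 leg libraries of batch 1 held 50.6, 80.3, 93.4, 96.1, 105 and 181 CPM. Those of batch 2 held 9.14, 18.5, 22.9, 29.3, 35.1 and 36.9 CPM. The batches did not overlap, and the fitted log2 change was -2.28 ± 0.38 (SE), adjusted p 0.000629 with edgeR. DPOGS210964 fell as well, from 20.7 to 39.8 CPM in batch 1 to 4.77 to 16.3 CPM in batch 2, again without overlap. Its fitted change was -1.84 ± 0.29 (SE), adjusted p 0.000523.

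DPOGS206685 was the member with the largest fitted rise, at 2.01 ± 0.70 (SE) and an adjusted p of 0.0346 with edgeR. Its leg libraries held 54.1 to 319 CPM in batch 1 and 268 to 3329 CPM in batch 2. Without male 2 the change was 1.17 (adjusted p 0.0249). The adjusted p rose to 0.0613 without female 11, and to between 0.0912 and 0.0969 without male 13, male 15 or male 20. The change itself was 2.14 without female 11 and 1.65 to 1.78 without each of those males. DPOGS215854 rose by 1.48 ± 0.44 (SE), adjusted p 0.0176, from 9.09 to 59.6 CPM in batch 1 to 28.02 to 189 CPM in batch 2. Without female 3, whose legs gave the 189 CPM, its change was 1.00 and its adjusted p 0.0829.

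The count of members called between batches was 4 without female 11, where 3871 of all genes were called. With all leg libraries thinned to the smallest total, the same 7 were called, 4 higher and 3 lower in batch 2. Of all genes, 4715 were called after thinning, against 4873 without it. By mean CPM, 34 of the 43 members (79.1%) were higher in legs of batch 2, as were 60.3% of all genes tested. These shares were not tested against each other. The summed share of the members was 0.303 ± 0.0479% of leg counts in batch 1 and 0.599 ± 0.215% in batch 2 (SD, n = 6 each).

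**Figure D4:**
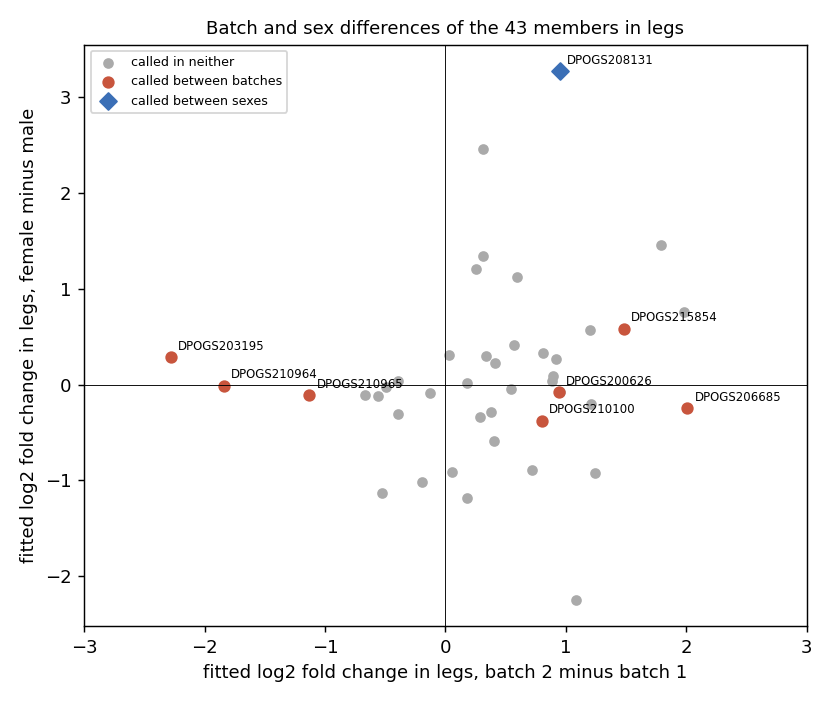
Fitted log2 differences of the 43 members in legs, batch 2 minus batch 1 on the horizontal axis and female minus male on the vertical axis. Red points passed an adjusted p of 0.05 between batches, the blue diamond passed it between sexes (DPOGS208131, at 3.27 on the vertical axis), and grey points passed neither.

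Some members carried neighbouring identifiers, which the selection did not use. Of the 43, 8 (18.6%) had a member with the next number up or down, 11 (25.6%) had one within 3 numbers, and 32 had none that near. Of the 6797 other genes that reached the leg level, 38 (0.559%) stood next to a member by number and 105 (1.54%) within 3 numbers. The files give no positions, so adjacent numbers are not shown here to be adjacent genes. Copies of a gene can share reads, and how reads with several matches were counted is not given in the sources used here, so the levels of such neighbours are uncertain. The runs below were named after their values were seen.

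DPOGS210962, DPOGS210964 and DPOGS210965 formed the run without a single antennal count. Against a floor of 3 counts over the antennal libraries, leg levels were at least 272-fold, 371-fold and 295-fold higher, in that order. In legs all 3 were lowest in male 2 and highest in male 13, and their highest and lowest leg libraries lay 3.33-fold, 8.34-fold and 11.3-fold apart. DPOGS210961, next to the run, had a leg mean of 0.493 CPM and no count in the other tissues. DPOGS210963, between its members, had no count in any library.

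DPOGS206064 and DPOGS206065 had leg means of 154 ± 140 and 59.3 ± 43.6 CPM (SD, n = 12). Both were lowest in the legs of male 20, at 6.28 and 2.89 CPM. The first was highest in male 2, at 407 CPM, and the second in female 1, at 129 CPM. Their antennal means were 0.585 and 0.513 CPM.

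DPOGS204909 and DPOGS204910 kept a steadier proportion. DPOGS204910 had 0.402 to 0.668 counts per count of DPOGS204909 over the 12 leg libraries, while each gene alone ranged 9.43-fold and 8.52-fold. They differed in antennae, where DPOGS204909 had no count and DPOGS204910 held 0 to 4.37 CPM.

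DPOGS204347 and DPOGS204348 shared their lowest leg library, that of male 20, at 0.0706 and 1.20 CPM. Their highest leg libraries were 26.8 CPM in male 12 and 103 CPM in female 25. Both were at 0.702 CPM or less as means in proboscis.

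DPOGS203602 and DPOGS203604 kept no fixed proportion in legs. DPOGS203602 held 0.596 to 20.96 CPM and was lowest in male 15, the animal in which DPOGS203604 was highest, at 43.6 CPM. DPOGS203604 had 0.311 to 73.1 counts per count of DPOGS203602. DPOGS203602 had 78 antennal counts, and the antennal mean of DPOGS203604 was 0.0276 CPM.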

How the data were processed

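Stranded Illumina libraries were made from 100 ng of total RNA, per the labels' protocols. The deposited table holds raw read counts per gene that the authors did not scale. Per the submitters' processing notes, HISAT2 2.0.5, featureCounts 1.5.2, FastQC 0.11.5 and limma were used. The sources used here do not give the build, the annotation, the strand setting or how reads with several matches were counted.

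CPM used column totals. Tests used edgeR 4.0.16 in R 4.3.3. The filterByExpr filter kept 11804 genes, all 43 members among them, and removed 3326 that held 0.0391% of counts. Scaling was by TMM. Antennae against proboscis, and the sex by tissue difference, came from 1 fit of the 35 libraries by sex and tissue with batch. Sex and batch in legs came from the 12 leg libraries. P-values were adjusted by Benjamini-Hochberg over all genes tested, and the SE was derived from the F statistic. Scripts were tested on simulated data. Alternatives were DESeq2 1.42.0, limma voom (3.58.1), other scalings, no filter, a block for the animal, single batches, thinned leg libraries and each animal left out. Figures used Python 3.11.15 and matplotlib 3.10.9.

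Libraries are paired because tissues came from the same animals. Between antennae and proboscis of an animal, deviations from the group and batch means correlated across genes with a median of 0.189 (9 of 11 animals above 0.1). Between legs and proboscis the median was 0.330 (10 of 12). Libraries of a group differed by a chi-square per gene of at least 27.8, so each was 1 replicate. P-values within legs measure the spread between animals. Folds against 0 counts are bounds at a floor of 3 counts over the group and cover counting error only.

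The members and the lists were chosen with earlier results of these data known. Lists of receptor, binding protein, muscle, cuticle and other families gave no value, because no identifier matched a name. Genes named were the 2 highest leg means, the 2 highest and 2 lowest ratios and the 2 genes nearest outside, the 2 lowest and 2 highest coefficients of variation, and at most 2 called members in each direction of a comparison by fitted change. Others are said to be named after their values were seen.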

Additional observations from a re-analysis of the deposited data

Results flagged for a closer look

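In the legs of each sex (6 libraries), 44 groups of values were checked for a library whose gap to its nearest neighbour was a large part of the whole range (Dixon's criterion). Of these 8 were marked. Chance marks about 1 in 20 groups of normally distributed values. The values were checked without a log, and each of the 8 marked libraries was the highest of its group. Whether they would be marked on a log scale was not tested. Several of these genes were also named for a high spread, mean or change in the same leg libraries. For both reasons the 8 cannot be set against that rate. The legs of male 2 stood apart from the other males in DPOGS206685 (3329 CPM, next 564 CPM), DPOGS215449 (874 CPM, next 147 CPM) and DPOGS200626 (1008 CPM, next 467 CPM). The summed share of the members was also highest there, at 1.01% of counts against 0.485% in the next male. Without the 2 most abundant members the share in male 2 was 0.505%. The legs of female 1 held 358 CPM of DPOGS216207, where the next female held 11.7 CPM. The legs of female 3 held 189 CPM of DPOGS215854, where the next female held 61.4 CPM. The legs of female 11 held 645 CPM of DPOGS206685, where the next female held 349 CPM. The legs of male 20, the single one in batch 1, held 577 CPM of DPOGS213261, where the next male held 361 CPM.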

How the results depend on the processing

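The number of members was 77 with CPM from TMM-scaled library sizes, 72 at 3 times the other tissues, 19 at 6 times and 27 with a leg mean of at least 20 CPM, and 38 to 52 when 1 animal was left out. The list could change where the count did not: 42 genes passed with medians over libraries (35 shared), 42 in males alone (27 shared) and 31 in females alone (28 shared). Of the 43 members, 20 were kept whichever animal was left out. Among the members named here, DPOGS213261 was lost without any 1 of 7 animals, DPOGS200626 of 4 and DPOGS203602 of 3. DPOGS203604, DPOGS210100, DPOGS215854 and DPOGS216207 were each lost without either of 2 animals. DPOGS204347, DPOGS204910, DPOGS207655 and DPOGS208131 were each lost without 1 animal. Leaving out 1 animal gave 26 to 27 members called between antennae and proboscis, 0 to 1 between sexes in legs, 4 to 8 between batches and 0 for the sex by tissue difference. DESeq2 called 3 members between sexes and 68 of all genes, where edgeR called 1 and 4. It added DPOGS203381 (log2 difference -2.30, adjusted p 0.0474) and DPOGS203602 (2.46, adjusted p 0.00225), which were chosen after their values were seen. The selection averaged the sexes, so both could enter through the sex with the higher leg level. Batch 2 alone called 0 between sexes. With the animal as a replicate block, 26 members were called between antennae and proboscis, the same 26, and 0 for the sex by tissue difference, so the paired fit changed no call. The scaling by column totals was chosen after seeing the data. None of the 8 named log2 changes reversed under the alternatives run. DESeq2 gave no adjusted p for DPOGS206685 between batches. The adjusted p of DPOGS208131 ranged from 7.92e-11 to 0.341 over its alternatives, and that of DPOGS204909 from 5.23e-07 to 0.0849. Depth limits the antennal values most: in the shallowest library a level under 1.61 CPM cannot be told from 0.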
